A study of Mus musculus with 6 samples.

Results

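The 50 genes described here encode cytosolic heat shock proteins, their co-chaperones and regulators, and the cytosolic chaperonin. They were chosen by symbol, all 50 were among the 28043 genes of the series, and all 50 passed the filter on low counts. Despite the shared name, Hspa9, Hspd1, Hspe1 and Dnaja3 encode proteins that work in mitochondria. The RNA came from primary cells of the mouse retinal pigment epithelium (RPE), the pigmented sheet behind the retina that supports the photoreceptors, in 3 libraries labelled Normal and 3 labelled PVR, each of 15269983 to 19173187 reads counted to genes. PVR, proliferative vitreoretinopathy, is a scarring disease of the injured eye in which detached RPE cells take part, and the series title calls it traumatic. The labels give both groups as polyadenylated RNA of primary RPE cells of mice and name no other agent or allele. Strain, age, sex, the way PVR was produced and the time after it, culture of the cells and the number of animals behind a library were not stated in the sources used here, and no label says that replicates were separate animals. P-values here measure the spread from library to library, which may be technical.

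Chaperones bind proteins that are unfolded and help them fold, refold or be destroyed. HSP70 proteins take up short unfolded stretches with the help of J-domain proteins, are reset by nucleotide exchange factors of the HSP110 and BAG families, and can pass their clients to HSP90. Small heat shock proteins hold unfolded proteins without using ATP, and the chaperonin TRiC folds actin and tubulin inside a ring. Many of these proteins come in pairs, with a constitutive form present at all times and an inducible form whose gene is switched on by heat shock factor 1 (HSF1) when unfolded proteins accumulate. In the RPE, which takes up outer segments daily under strong light, small heat shock proteins such as alpha B-crystallin are known as protectors against oxidative stress.

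In PVR 6 of 10 heat-inducible chaperone genes were lower, 18 of 20 constitutive ones did not pass the test, and 3 genes of neither class (Hspa2, Hspb6 and Fkbp5) were higher. Values are normalised read counts, and lists of values run from replicate 1 to replicate 3. Log2 changes are given as PVR minus Normal, on log2(normalised count + 1). Of the 50 genes, 17 were lower and 3 higher in PVR (limma, Benjamini-Hochberg adjusted p under 0.05 over 15766 genes), which is 34% and 6%, while over all genes tested 12.9% were lower and 17.9% higher (30.8% in either direction). In 29 of the 50 genes the groups did not overlap, with PVR below Normal in 22 and above in 7, against 48.0% of all genes tested (23.3% below and 24.7% above). The median log2 change was -0.21 over the 50 genes and -0.02 over all genes tested. Among 10 genes known to be strongly raised by heat shock (Hspa1a, Hspa1b, Hsph1, Hsp90aa1, Hspb1, Cryab, Hspb8, Dnajb1, Bag3 and Chordc1), 6 were lower and none higher (none at an unadjusted limma p under 0.05 and none by edgeR or DESeq2), with a median of -1.17. Among 20 genes known as constitutive, 2 were lower and none higher (2 at an unadjusted limma p under 0.05, none by edgeR or DESeq2), a share of 10% that is near the background, and their median was 0.05. The difference between the classes was not tested. The lower genes numbered 10 without PVR replicate 1 or PVR replicate 2, 20 without Normal replicate 2, and 16 without both Normal replicate 2 and PVR replicate 3, a choice made after seeing the data. Of the inducible genes 9 were lower without Normal replicate 2, and of the constitutive genes 1 was lower without Normal replicate 3, PVR replicate 2 or PVR replicate 3 and none without Normal replicate 1 or PVR replicate 1.

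**Figure D1:**
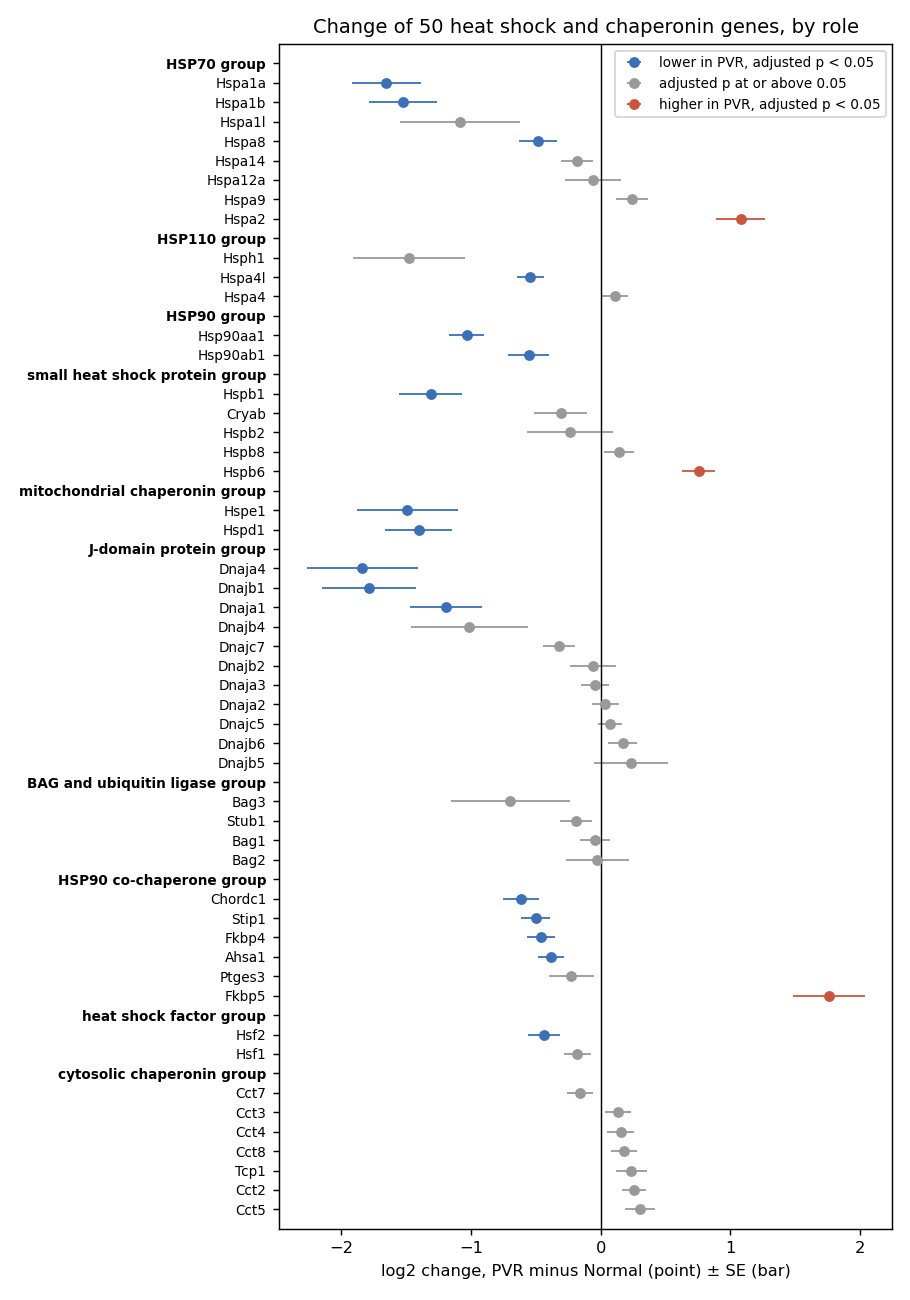
Log2 change (PVR minus Normal, log2(normalised count + 1) scale) with its standard error for the 50 genes, grouped by role. Blue points are the 17 lower genes and red points the 3 higher genes (limma adjusted p under 0.05), and the 7 chaperonin subunits lie between -0.16 and 0.30.

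HSF1 binds the heat shock element, inverted repeats of a short unit. Stretches of the RefSeq promoters (GRCm38.p6) that match it are shown for the lower genes that carry one and for Hsph1, not for every gene with a match. The motif searched was GAANNTTCNNGAA, or TTCNNGAANNTTC on the other strand, from 250 bases before to 50 after each start site. Each line is 1 stretch of at most 30 bases, 5′ to 3′ on the gene's strand, with the match in capitals. Capitals cover every match in the stretch shown, overlapping ones joined. Chordc1, Hspe1 and the first Hsph1 stretch hold exact matches, and every other match shown differs at 1 of the 9 fixed bases. Not printed are the matches in Dnajb6 (1 of them exact), Cct2, Cct5, Dnajb4 and Ptges3, which did not pass the test. The match in Hspb6, which was higher, is not printed either.
Chordc1: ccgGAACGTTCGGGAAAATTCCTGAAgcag
Hspe1: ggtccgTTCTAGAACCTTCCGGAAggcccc
Hspa1a: agacgcGAAACTGCTGGAAGATTCctggcc
Hspa1b: agacgcGAAACTGCTGGAAGATTCctggcc
Hsph1: aatgctGCAGATTCTGGAAAGTTCtcctca
Hsph1: gaatctTTCTCGAAGGCTCGAGAAgaagga
Hspb1: caacaagaGAAGTTTCCAGATgggggcaga
Dnaja1: aaaaaagcCTCTAGAAAATTCtacgaggct
Dnaja4: ccgccgGAACCTCCGCGAACGTTCtgggcc
Fkbp4: aaccgcttCTCTAGAAAGTTCtccgctccc
Ahsa1: tgtgctgcTTCTAGTAGTTTCcaggcgctg
In the order of these lines the stretches lie at chr9:18292260-18292289 (plus strand), chr1:55088053-55088082 (plus strand), chr17:34972247-34972276 (minus strand), chr17:34959329-34959358 (minus strand), chr5:149636282-149636311 (minus strand), chr5:149636346-149636375 (minus strand), chr5:135887794-135887823 (plus strand), chr4:40722331-40722360 (plus strand), chr9:54699453-54699482 (plus strand), chr6:128438791-128438820 (minus strand) and chr12:87266733-87266762 (plus strand). The Hspa1a and Hspa1b stretches are the same 30 letters, each at -114 to -97 from its own start site. The Hspe1 stretch, at -89 to -72 from the Hspe1 start, is also the stretch at -144 to -127 from a start site of Hspd1 on the opposite strand. In Chordc1 the capitals run across the start site, from -4 to 19, and hold 3 exact matches.

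Of the 50 genes, 41 had a promoter in the RefSeq table, all but Hspa8, Hspa9, Hsp90aa1, Hsp90ab1, Hspb2, Cryab, Dnajc5, Hsf1 and Cct4. An exact match stood in 5 of the 41 (12.2%), namely Chordc1, Dnajb6, Hspd1, Hspe1 and Hsph1, and in 0.559% of the 11281 tested genes with a promoter (0.603% of all 32851 promoters). With 1 of the 9 fixed bases free to differ, a looser search added after seeing the exact matches, 17 of the 41 (41.5%) held a match, against 6.52% of the tested genes and 7.22% of all promoters. By the result in these libraries, 10 of the 14 lower genes with a promoter held such a match (71.4%), 6 of the 24 that did not pass the test (25%) and 1 of the 3 higher genes, Hspb6. With exact matches these counts were 3 of 14 (21.4%), 2 of 24 (8.33%) and 0 of 3. The 10 lower genes are not 10 separate sequences, since Hspa1a and Hspa1b hold the same letters and Hspd1 and Hspe1 share 1 stretch. The genes were chosen as heat shock and chaperonin genes, and control by HSF1 was not tested. These are matches of letters, not measured binding. The lower genes Dnajb1, Stip1, Hspa4l and Hsf2 held none in the window searched.

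Both inducible HSP70 genes fell. Hspa1a (chromosome 17, 34969190 to 34972156) and Hspa1b (chromosome 17, 34956436 to 34959238) are neighbouring genes for nearly the same HSP70 protein, all but silent in unstressed cells by textbook account. Hspa1a stood at 35377, 28184 and 44679 in Normal and 11488, 8015 and 15604 in PVR, a 3.14-fold fall (log2 change -1.65, SE 0.26, limma adjusted p = 0.00325). Hspa1b stood at 58179, 39732 and 70300.0 in Normal and 18786, 14470.5 and 25246 in PVR (log2 change -1.52, SE 0.26, limma adjusted p = 0.00414). For both genes every PVR library lay below every Normal library. Hspa1b had the highest level per length of the 50 genes in Normal, 20004 normalised counts per kb of exon, ahead of Hsp90aa1 (13099.8), Hspa1a (12161), Hspa8 (10423) and Hsp90ab1 (10398). Neighbours in this order overlapped over the 3 Normal libraries. Of the 50-base words in Hspa1a transcripts 60.4% also occur in transcripts of other genes, mostly Hspa1b, and 62.3% of those of Hspa1b occur in Hspa1a, so the split of reads between the 2 genes is uncertain. Words shared with other transcripts, mostly those of pseudogenes, also made up 48.8% of Hspb1, 47.5% of Hsp90aa1, 39.7% of Hspd1 and 38.6% of Hspa8, whose levels are uncertain to that extent.

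Hspa8, which encodes the constitutive HSC70 that also uncoats clathrin vesicles, fell too. Its values were 49249, 35933 and 49301 in Normal and 31325, 34169 and 29836 in PVR (log2 change -0.48, SE 0.14, limma adjusted p = 0.0302), and the highest PVR value lay just under Normal replicate 2. Hspa8 did not pass once Normal replicate 1 (limma adjusted p = 0.107), Normal replicate 3 (0.0942), PVR replicate 1 (0.0823) or PVR replicate 3 (0.0736) was left out, and over the 18 alternatives its adjusted p ran from 0.00521 to 0.167. Hspa2, an HSP70 best known from male germ cells, went the other way, with 91.7, 81.5 and 98.8 in Normal and 163, 199 and 218 in PVR (log2 change 1.08, SE 0.19, limma adjusted p = 0.00241). Here every PVR library was above every Normal library, at a level far under that of Hspa8. The remaining HSP70 genes did not pass the test. Hspa9, the mitochondrial HSP70, had a log2 change of 0.24, Hspa14, which acts at the ribosome, -0.18 and Hspa12a -0.06. Hspa1l, which starts head to head with Hspa1a, rested on 5 to 26 reads per library and had a log2 change of -1.08 (limma adjusted p = 0.105).

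**Figure D2:**
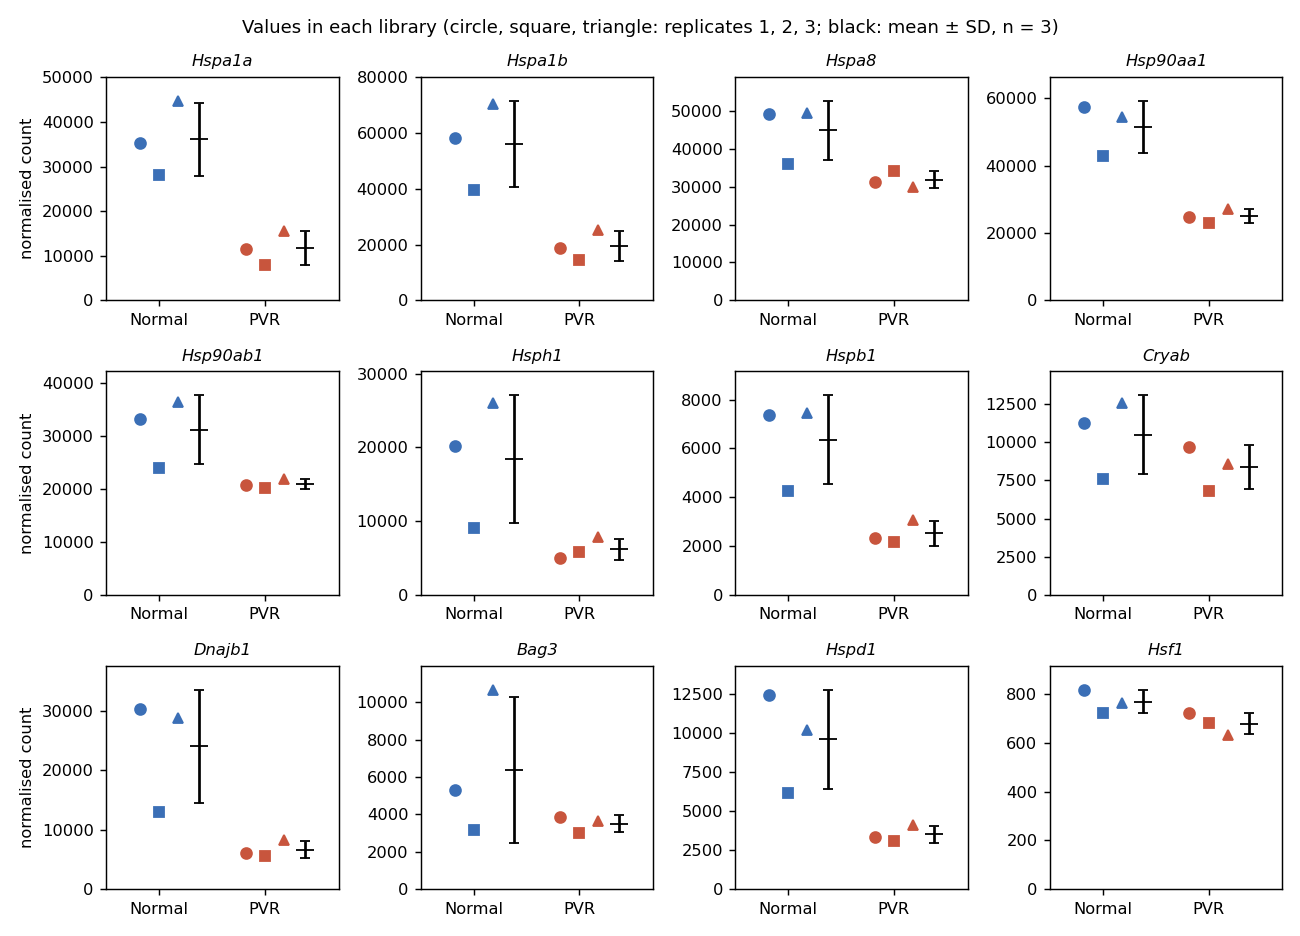
Normalised counts (linear axis from 0) of 12 genes in each library, with the mean and SD of 3 libraries in black. Normal replicate 2 (square) is the lowest Normal library in all 12 panels, and the PVR libraries lie below every Normal library in all panels but those of Cryab and Bag3.

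HSP110 proteins reset HSP70 by exchanging its nucleotide. Hsph1, the inducible member, stood at 20146, 9043 and 26096 in Normal and 4955, 5747 and 7769 in PVR (log2 change -1.48, SE 0.43). The groups did not overlap, but the gene did not pass (limma adjusted p = 0.0536). It passed with the replicate number as a block (limma adjusted p = 0.0215), by edgeR (0.0358) and without Normal replicate 2 (log2 change -1.92, limma adjusted p = 0.000165). Over the 18 alternatives its adjusted p ran from 3.14e-05 to 0.157. Hspa4, its constitutive relative, did not pass, with 3717, 3929 and 4041 in Normal and 4117, 4631 and 3875 in PVR (log2 change 0.11, limma adjusted p = 0.472). Hspa4l, the third of the family, fell, with 2756, 2435 and 2958 in Normal and 1781, 1936 and 1864 in PVR (log2 change -0.54, SE 0.11, limma adjusted p = 0.004). Its groups were apart, with little spread within PVR.

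HSP90 holds kinases and steroid receptors near their active shape. The inducible form gene Hsp90aa1 (chromosome 12, 110690605 to 110702728) stood at 57283, 42810.2 and 54392 in Normal and 24893, 23036 and 27125 in PVR, a 2.05-fold fall (log2 change -1.03, SE 0.14, limma adjusted p = 0.000576). Of the 50 genes it had the smallest adjusted p, and its groups were far apart. The constitutive form gene Hsp90ab1 stood at 33256, 23908 and 36389 in Normal and 20699, 20114 and 21909.7 in PVR (log2 change -0.56, SE 0.16, limma adjusted p = 0.0231). PVR values of Hsp90ab1 were close together and all under Normal replicate 2. Hsp90ab1 did not pass once Normal replicate 1 (limma adjusted p = 0.0837), Normal replicate 3 (0.0769), PVR replicate 1 (0.064) or PVR replicate 2 (0.0696) was left out, and over the 18 alternatives its adjusted p ran from 0.00232 to 0.0911.

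Of 6 genes for co-chaperones of HSP90, 4 fell as well (66.7%, against 12.9% of all genes tested). Another 1 rose (16.7%, near the 17.9% of all genes tested). Chordc1, itself heat-inducible, stood at 1814, 1511 and 1292 in Normal and 964, 1103 and 925 in PVR (log2 change -0.62, SE 0.14, limma adjusted p = 0.00775). Stip1, which encodes the adaptor HOP between HSP70 and HSP90, stood at 3664, 3362 and 3151 in Normal and 2634, 2323 and 2232 in PVR (log2 change -0.50, limma adjusted p = 0.0067). In both the groups were apart, and no Normal library stood out. Stip1 did not pass without both Normal replicate 2 and PVR replicate 3 (limma adjusted p = 0.0536), and over the 18 alternatives its adjusted p ran from 0.000621 to 0.0536. Fkbp4, an immunophilin that moves steroid receptors, fell too, with 5683, 5458 and 5979.9 in Normal and 4159, 3768 and 4567 in PVR (log2 change -0.46, limma adjusted p = 0.00998). Ahsa1, the activator of the HSP90 ATPase, fell from 1350.3 ± 87.8 to 1037 ± 55.6 (SD, n = 3; log2 change -0.38, limma adjusted p = 0.0179). Ahsa1 did not pass once Normal replicate 1 (limma adjusted p = 0.0716), Normal replicate 2 (0.0533) or PVR replicate 2 (0.0593) was left out, and over the 18 alternatives its adjusted p ran from 0.0132 to 0.0716. Fkbp5, a close relative of Fkbp4 known as a glucocorticoid-induced gene that restrains the glucocorticoid receptor, rose more than any other of the 50 genes. It stood at 97.9, 92.6 and 67.1 in Normal and 263, 437 and 209.7 in PVR (log2 change 1.76, SE 0.28, limma adjusted p = 0.00146). Every PVR library was above every Normal library, and PVR replicate 2 was the highest. Ptges3, the p23 co-chaperone, had a log2 change of -0.23 and did not pass (limma adjusted p = 0.355), although it did without Normal replicate 2 (log2 change -0.43, limma adjusted p = 0.0435; 0.0435 to 0.894 over the 18 alternatives).

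J-domain proteins deliver clients to HSP70 and start its ATPase. Of 11 such genes 3 fell (27.3%, against 12.9% of all genes tested) and none rose (none at an unadjusted limma p under 0.05 and none by edgeR or DESeq2). Dnajb1, which encodes the inducible HSP40, stood at 30339.6, 12997 and 28766 in Normal and 6131, 5493 and 8233 in PVR, a 3.45-fold fall (log2 change -1.78, SE 0.36, limma adjusted p = 0.014). Dnaja4 stood at 5408, 1932 and 2640.1 in Normal and 877, 638 and 1075 in PVR (log2 change -1.84, SE 0.43, limma adjusted p = 0.0265), the lowest log2 change of the 50 genes. Dnaja1, a farnesylated partner of HSC70, stood at 18844, 8965 and 16255 in Normal and 5988, 5344 and 7195 in PVR (log2 change -1.19, SE 0.28, limma adjusted p = 0.0183). The groups were apart in all 3 genes, and the Normal libraries spread over a factor of 2.33 in Dnajb1, 2.80 in Dnaja4 and 2.10 in Dnaja1. Dnajb1 did not pass once PVR replicate 1 (limma adjusted p = 0.0562) or PVR replicate 2 (0.0647) was left out, nor with no filter on low counts (0.0622), and over the 18 alternatives its adjusted p ran from 9.8e-11 to 0.088. Dnaja4 did not pass once Normal replicate 3 (limma adjusted p = 0.0673), PVR replicate 1 (0.0956), PVR replicate 2 (0.0941) or PVR replicate 3 (0.0591) was left out, nor with no filter on low counts (0.0802), and over the 18 alternatives its adjusted p ran from 0.000746 to 0.125. Dnaja1 did not pass once Normal replicate 3 (limma adjusted p = 0.0666), PVR replicate 1 (0.0657) or PVR replicate 2 (0.082) was left out, nor with no filter on low counts (0.0934), and over the 18 alternatives its adjusted p ran from 1.36e-06 to 0.123. Annotated exons of Dnaja4 and Wdr61, on opposite strands, share 1581 bases, and those of Dnaja1 and Smu1 share 608, so the 2 levels are uncertain to that extent.

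The other 8 J-domain genes did not pass the test. Dnajb4 stood at 4777, 1636 and 4571 in Normal and 1759, 1392 and 1769.9 in PVR (log2 change -1.01, limma adjusted p = 0.153). Normal replicate 2 sat among the PVR libraries, and the gene passed without it (log2 change -1.52, limma adjusted p = 7.04e-05) and with the replicate number as a block (limma adjusted p = 0.0474; 7.04e-05 to 0.449 over the 18 alternatives). Dnajc7, which also binds HSP90, had a log2 change of -0.32 (limma adjusted p = 0.079) and passed without Normal replicate 3 (log2 change -0.43, limma adjusted p = 0.0306; 0.0306 to 0.399 over the 18 alternatives). The remaining 6 lay between -0.06 (Dnajb2) and 0.23 (Dnajb5). They include Dnaja2, a constitutive HSC70 partner (2141 ± 139 to 2195 ± 154, SD, n = 3), Dnajb6, which holds back aggregates of polyglutamine proteins (1222 ± 49.3 to 1381 ± 175), and Dnajc5, the cysteine string protein of secretory vesicles (2519.8 ± 87.0 to 2653 ± 115).

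Of 5 small heat shock protein genes 1 was lower and 1 higher. These shares of 20% each are near the 12.9% and 17.9% of all genes tested, and 5 genes are too few to describe the family. Hspb1, which encodes the inducible HSP27 that also binds actin, stood at 7374, 4251 and 7447 in Normal and 2315, 2142 and 3085 in PVR, a 2.48-fold fall (log2 change -1.31, SE 0.24, limma adjusted p = 0.00632). Its groups were apart, with Normal replicate 2 nearest the PVR values. Cryab, which encodes alpha B-crystallin (chromosome 9, 50751325 to 50756636), stood at 11288, 7601 and 12603 in Normal and 9698, 6809.8 and 8611 in PVR (log2 change -0.31, SE 0.21, limma adjusted p = 0.293). Here the groups overlapped, since Normal replicate 2 lay under PVR replicates 1 and 3. Without that library Cryab passed (log2 change -0.53, limma adjusted p = 0.0426; 0.0426 to 0.643 over the 18 alternatives). Alpha B-crystallin is also a major lens protein. Its lens partner gene Cryaa, too low to test, stood at 0, 0 and 0 in Normal and 13.4, 50.1 and 5.67 in PVR. The 12 lens markers, Cryaa among them, fell in sum, with 438 to 480 in Normal and 280 to 346 in PVR. That fall lay in Lim2, with 281, 296 and 314 in Normal and 50.5, 43.3 and 110 in PVR. The mean of log2(normalised count + 1) over the 12 was higher in every PVR library. It was 2.54, 2.10 and 2.69 in Normal and 3.18, 3.51 and 2.81 in PVR. Of the 4 lens markers tested 1, Lim2, was lower and none higher (1 at an unadjusted limma p under 0.05, none by edgeR or DESeq2). The part of lens material in the Cryab value was not tested. Hspb6, a small heat shock protein best known from muscle, rose, with 441, 484 and 538 in Normal and 719.8, 901 and 857 in PVR (log2 change 0.76, SE 0.13, limma adjusted p = 0.00185). The 8 markers of skeletal and heart muscle in the table summed to 13.6 to 31.5 in Normal and 34.0 to 38.1 in PVR. Of 7 tested markers of pericytes and smooth muscle 3 were higher, and 3 had a log2 change below 0 without passing the test. The list summed to 4644 to 5627 in Normal and 7332 to 8338 in PVR. Most of that rise lay in Acta2, with 1941, 2373 and 2696 in Normal and 5048, 5782.5 and 4131 in PVR. The part of muscle and pericyte markers in the Hspb6 value was not tested. Hspb8, the partner of BAG3 in selective autophagy, did not pass (779 ± 83.4 to 858 ± 70.4, SD, n = 3). Hspb2, which starts head to head with Cryab and shares 252 exon bases with it, rested on 18 to 34 reads per library (log2 change -0.24).

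BAG proteins release the nucleotide from HSP70, and none of the 4 genes in this group passed, nor was any at an unadjusted limma p under 0.05 or called by edgeR or DESeq2. Bag3, the inducible member, stood at 5304, 3134 and 10691 in Normal and 3850.1, 2977 and 3652 in PVR (log2 change -0.70, SE 0.46, limma adjusted p = 0.311). Normal replicate 3 was far above the others, and Normal replicate 2 lay within the PVR range. Without Normal replicate 2 the gene passed (log2 change -1.12, limma adjusted p = 0.0315; 0.0315 to 0.557 over the 18 alternatives). Bag1 had a log2 change of -0.05, Bag2 -0.03 and Stub1, the ubiquitin ligase CHIP that marks chaperone clients for destruction, -0.19.

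Hspd1 and Hspe1 encode the mitochondrial chaperonin HSP60 and its lid HSP10 and lie head to head (chromosome 1, 55077835 to 55088243 and 55088132 to 55091307), and share the promoter stretch printed above. Hspd1 stood at 12440.1, 6160.5 and 10164 in Normal and 3331, 3079 and 4114 in PVR (log2 change -1.40, SE 0.26, limma adjusted p = 0.00645). Hspe1 stood at 6204, 2401 and 4700.1 in Normal and 1541, 1132 and 1807 in PVR (log2 change -1.49, SE 0.39, limma adjusted p = 0.036). Hspd1 did not pass with replicates 1 and 2 only (limma adjusted p = 0.0668; 3.37e-09 to 0.0668 over the 18 alternatives). Both genes ranked the 6 libraries in the same order, from Normal replicate 1 down to PVR replicate 2. Hspe1 did not pass once Normal replicate 1 (limma adjusted p = 0.0599), Normal replicate 3 (0.108), PVR replicate 1 (0.11), PVR replicate 2 (0.117) or PVR replicate 3 (0.0737) was left out, nor with no filter on low counts (0.11), and over the 18 alternatives its adjusted p ran from 3.77e-07 to 0.177. Of 10 other genes for folding and protein quality control in mitochondria, none was higher (none at an unadjusted limma p under 0.05 and none by edgeR or DESeq2). In that list 2 were lower (20%, near the 12.9% of all genes tested). These were the protease subunit gene Clpp (775 to 619.7) and the import factor gene Dnajc15 (555 to 441), and their log2 changes of -0.32 and -0.33 were small beside those of Hspd1 and Hspe1.

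None of the 7 subunit genes of the cytosolic chaperonin TRiC among the 50 passed the limma test. By an unadjusted limma p under 0.05 there were 2 higher and none lower, by edgeR and DESeq2 none. Their log2 changes ran from -0.16 (Cct7) to 0.30 (Cct5), 6 of them above 0. Cct6a, a further subunit gene counted here with the other folding genes, had a log2 change of -0.07 and did not pass either. Tcp1 stood at 1369, 1384 and 1409 in Normal and 1488, 1945 and 1512 in PVR (log2 change 0.24, limma adjusted p = 0.165). Cct2 stood at 1612, 1561 and 1605 in Normal and 1899, 1989.8 and 1812 in PVR (log2 change 0.25, limma adjusted p = 0.0648) and Cct5 at 969.9, 1015 and 1175 in Normal and 1322, 1394 and 1179.6 in PVR (log2 change 0.30, limma adjusted p = 0.0722). In Cct2, Cct5, Cct8 and Tcp1 the PVR libraries all lay above the Normal ones, by small margins. Cct5 passed without PVR replicate 3 (log2 change 0.37, limma adjusted p = 0.0491; 0.0336 to 0.212 over the 18 alternatives).

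The transcript of the regulator itself did not pass the test. Hsf1 stood at 820.4, 725 and 766 in Normal and 723, 685 and 634 in PVR (log2 change -0.18, SE 0.11, limma adjusted p = 0.233). The groups came close without overlapping. HSF1 is known to be controlled mainly as a protein, which these data do not measure. Hsf2, a relative with roles in development, fell, with 335, 377 and 348 in Normal and 256, 259.7 and 266 in PVR (log2 change -0.43, SE 0.12, limma adjusted p = 0.0243). Hsf2 did not pass once Normal replicate 1 (limma adjusted p = 0.0506), Normal replicate 2 (0.108), Normal replicate 3 (0.0642), PVR replicate 1 (0.0564) or PVR replicate 2 (0.0552) was left out, nor with no filter on low counts (0.0593), and over the 18 alternatives its adjusted p ran from 0.0205 to 0.14.

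Within each library the inducible form was set against a constitutive partner, a ratio of counts in which library scaling and, between libraries, gene length cancel, and these ratios are described without a test. The log2 ratio of Hspa1a and Hspa1b together over Hspa8 was 0.93, 0.92 and 1.22 in Normal and -0.05, -0.60 and 0.45 in PVR. The groups were apart, and PVR replicate 2 had the lowest ratio. For Hsp90aa1 over Hsp90ab1 the log2 ratio was 0.78, 0.84 and 0.58 in Normal and 0.27, 0.20 and 0.31 in PVR, with the groups apart and on the same side of 0. Hsph1 over Hspa4 gave 2.44, 1.20 and 2.69 in Normal and 0.27, 0.31 and 1.0 in PVR, and Dnajb1 over Dnaja2 gave 3.87, 2.66 and 3.64 in Normal and 1.37, 1.36 and 1.99 in PVR. In these pairs too the groups were apart, with Normal replicate 2 nearest to PVR. Bag3 over Bag1 overlapped, with a difference of means of -0.65, which was -0.23 without Normal replicate 3 and -1.08 without Normal replicate 2. The differences of means for the other 4 pairs were -1.09, -0.48, -1.58 and -1.82 in the order given.

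**Figure D3:**
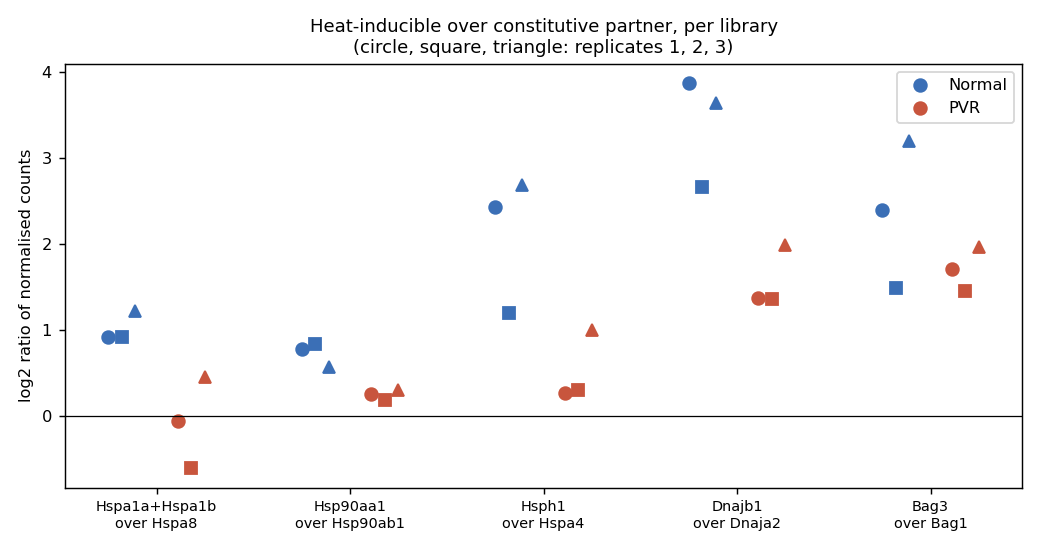
Log2 ratio of normalised counts of the inducible gene over its constitutive partner in each library (marker shape gives the replicate). PVR lies below Normal in 4 of the 5 pairs, and Bag3 over Bag1 overlaps.

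The inducible genes also varied among the Normal libraries. Together the 50 genes took, in percent of all reads, 2.48, 1.75 and 2.47 in Normal and 1.09, 1.05 and 1.27 in PVR. The 10 inducible genes summed to 227980.0, 149989 and 257003 in Normal and 84001, 70576 and 101121 in PVR. The 20 constitutive genes summed to 114280.0, 89834 and 117609 in Normal and 86505, 87224 and 82674 in PVR. For both classes Normal replicate 2 was the lowest Normal library, and every PVR sum lay under it. Hspa8 and Hsp90ab1 carried most of the constitutive sum, and the other 18 constitutive genes summed to 31774, 29993 and 31919 in Normal and 34481, 32941 and 30928 in PVR, where the groups overlapped. The highest Normal library exceeded the lowest by a median factor of 1.71 over the inducible genes, 1.15 over the constitutive genes and 1.27 over all genes tested. In PVR these factors were 1.43, 1.17 and 1.34. Normal replicate 2 lay below the mean of Normal replicates 1 and 3 for 10 of the 10 inducible genes, with a median difference of -0.67 on the log2 scale, while over all genes tested the median was -0.00039. Over the 50 genes the gap was widest for Dnajb4 (-1.51), Hsph1 (-1.34) and Bag3 (-1.26). Against Normal replicate 2 alone the PVR mean was still lower, with a log2 difference of -1.32 for Hspa1a, -0.99 for Dnajb1, -0.78 for Hspb1 and -0.78 for Hsp90aa1, whereas in the inducible class Hspb8 (0.24), Bag3 (0.15) and Cryab (0.12) were not.

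**Figure D4:**
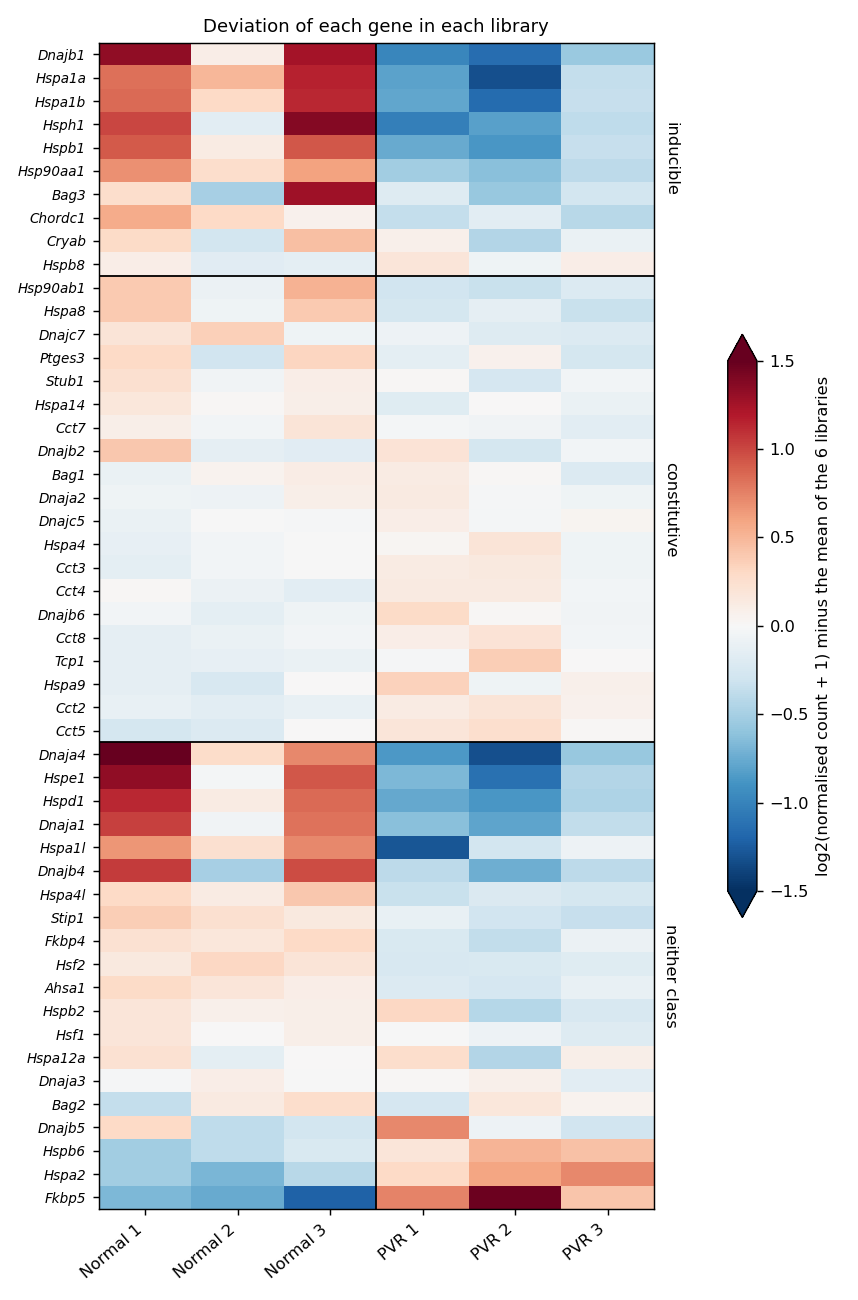
Deviation of log2(normalised count + 1) from the mean of the 6 libraries for the 50 genes in 3 classes, red above and blue below the mean, with colours capped at the ends of the scale. The inducible block is mostly red in Normal replicates 1 and 3, paler in Normal replicate 2 and mostly blue in PVR, while the constitutive block is pale throughout.

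Other genes moved with these libraries. Immediate early genes, which cells switch on within minutes of a stimulus, summed to 296485, 73806 and 271338 in Normal and 223368, 137831 and 149971 in PVR (18 genes). As with the inducible chaperones, Normal replicate 2 was the lowest Normal library, and 17 of the 18 immediate early genes lay below the mean of Normal replicates 1 and 3 there. Unlike those of the inducible chaperones, the PVR sums lay between the Normal ones. Of the 18 genes 2 were higher in PVR (Egr3, 116 to 288, and Ier3, 494 to 1009), or 11.1%, against 17.9% of all genes tested. None was lower (none at an unadjusted limma p under 0.05, none by edgeR or DESeq2), against 12.9% of all genes tested. The median PVR mean was 1.54 above Normal replicate 2 on the log2 scale. The part of immediate early genes in the chaperone values was not tested. Of 14 RPE markers 8 were lower (57.1%, against 12.9% of all genes tested), with Rpe65 and Rgr among them (86793 to 31775 and 298663 to 157350.0). The 1 higher RPE marker was Mlana (516 to 998), and 5 of the 14, Mlana included, had a log2 change above 0. RPE markers differed widely in level. Mlana stood at 408 to 1089 normalised counts in the 6 libraries, Pmel at 468 to 1780 and Best1 at 7.56 to 22.8. Of 16 macrophage markers 15 were higher (93.8%, against 17.9% of all genes tested) and 1, Csf1r, lower. Without Csf1r the macrophage markers summed to 1125, 664 and 657 in Normal and 25606, 29202 and 11126 in PVR. Of 8 fibroblast markers 7 were higher (87.5%) and none lower by any of the 3 tools, with sums of 2803 to 4787 in Normal and 16614 to 25637 in PVR. No marker in these lists was at 0 in all 6 libraries. Fewer cells of a type and less RNA per cell cannot be told apart in such bulk samples, and the part of cell composition in the chaperone values was not tested.

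**Figure D5:**
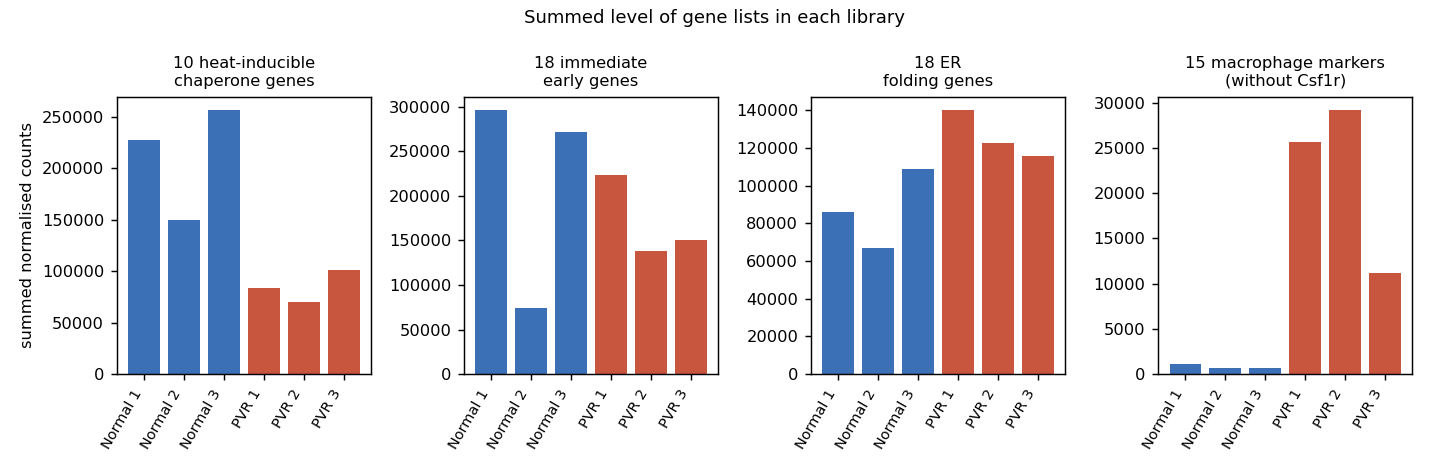
Summed normalised counts (bars from 0) of 4 gene lists in each library, Normal in blue and PVR in red. The inducible chaperone sums do not overlap between groups, the immediate early sums do, and both are lowest among Normal libraries in replicate 2.

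Other folding genes were counted in the same fit. Of 38 tested genes for further cytosolic chaperones and co-chaperones, 4 were lower and none higher (2 at an unadjusted limma p under 0.05, none by edgeR or DESeq2), with a median log2 change of -0.11. The lower ones were St13, which encodes the HSP70 partner HIP (9518 ± 505 to 6211 ± 561, SD, n = 3; limma adjusted p = 0.00233), Bag4 (932 to 648), Hikeshi, which carries HSP70 into the nucleus during heat shock (320.3 to 224), and the prefoldin subunit gene Pfdn5 (1463 to 1120.4), the last named after its value was seen. The share of lower genes among them was 10.5%, near the background of 12.9%. Folding genes of the endoplasmic reticulum went the other way, with 11 of 18 higher (61.1%, against 17.9% of all genes tested) and a median of 0.55. None was lower (none at an unadjusted limma p under 0.05, none by edgeR or DESeq2). Examples are P4hb (3217 ± 351 to 7798 ± 999, SD, n = 3) and Sdf2l1 (254 ± 6.18 to 710.1 ± 149), while the HSP70 of that compartment, Hspa5, did not pass (28689 ± 13346 to 39138 ± 8455, limma adjusted p = 0.339). Hspa5 was also lowest in Normal replicate 2, at 15358 against 28658 and 42050.2 in Normal replicates 1 and 3.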

How the data were processed

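Each deposited table gives a signal per gene symbol, and the values show that the authors divided read counts by 1 size factor per library. All values (100%, within 0.001 reads) were multiples of what 1 read was worth, so reads were recovered, 15269983 to 19173187 per library. A count of 0 allows up to 3 reads, or 2.72 to 3.42 normalised counts, for counting error only. The submitters' processing notes name mm10 and DESeq2 without a role. The aligner, counter and strand setting were not given in the sources used here. Groups and replicate numbers came from the sample titles. Groups were compared in R 4.3.3 by limma 3.58.1 (trend and robust options) on log2(normalised count + 1). The filterByExpr function of edgeR 4.0.16 (minimum count 10) kept 15766 genes, with Benjamini-Hochberg adjustment over all of them and a threshold of 0.05. On recovered reads edgeR called 4706 genes and DESeq2 1.42.0 4824, and limma called 4858. The fits were also run on simulated counts with planted changes. Those counts held no deviation shared by same-numbered libraries, and no result here rests on them.

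Same-numbered Normal and PVR libraries deviated together from their group means (Pearson r across genes 0.206, 0.195 and 0.179), so the replicate number was fitted as a block in an alternative. Such a pairing rests on these values and not on a statement in the labels. The main fit held the group only, so counts and p-values given without a named alternative ignore any pairing. No library was a copy of another. Positions and exon lengths are from GENCODE M21 (GRCm38, also called mm10), 1-based, in which all 50 symbols were found, and 15 of the 50 overlap exons of another gene that was tested. Promoter sequences are from RefSeq (GRCm38.p6).

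The genes, their classes and roles, the other lists and the tests were chosen with earlier results of these data known. Values in every library are given for Hspa1a, Hspa1b, Hspa8, Hsp90aa1, Hsp90ab1, Hsph1, Hspb1, Cryab, Dnajb1, Bag3, Hsf1 and Hspd1 whatever their p, and for at most 4 genes of each role group with an adjusted p under 0.05, in order of p. Those given beyond this rule for comparison (Hspa4, Dnajb4, Tcp1, Cct2 and Cct5) were added after their values were seen. Of other lists at most 3 genes were named, by smallest p, and other names were added after their values were seen. Tables and plots were made with Python 3.11.15, pandas 2.3.3 and matplotlib 3.10.9.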

Additional observations from a re-analysis of the deposited data

How the results depend on the processing

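Gene counts and single-gene changes were recomputed under 18 alternatives, in pseudocount, filter, scaling, count test, replicate block and libraries left out, and the paralog ratios under the 8 that leave out libraries. Promoter matches, marker lists, summed levels and the spread among Normal libraries were not recomputed, beyond the looser promoter match and the list counts by edgeR and DESeq2. Of 900 recomputed changes of single genes among the 50, 835 kept their side of the threshold, 46 lost the call, 19 gained one and 0 reversed a call. Among those that kept their side, 19 had the opposite sign, all in 7 genes without a call (Hspa12a, Dnaja2, Dnaja3, Dnajb2, Dnajb5, Bag1 and Bag2). Of the 20 called genes, 10 kept the call in every alternative, and of the 30 others 23 stayed without one. With the replicate block 19 of the 50 genes were lower and 3 higher, and Hsph1 and Dnajb4 were the only ones of the 50 whose call changed. With single libraries left out, the lower genes numbered 10 to 20 of the 50, 0 to 3 of the constitutive class and 1307 to 2026 of all genes tested, and 0 to 1 constitutive genes were higher. With replicates 1 and 2 only, fewer libraries, 9 of the 50 genes were lower, and in the constitutive class 0 were lower and 1 higher. The broader inducible class, which adds Stip1, Ahsa1, Fkbp4, Dnaja1, Dnajb4, Hspd1 and Hspe1, had 12 lower genes. With no filter 12 of the 50 were lower. Apart from the number of samples and genes tested, the cause of these shifts was not tested. Depth limits only Hspa1l and Hspb2, with at most 26 and 34 reads in a library, among the 50 genes.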

Other observations

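Markers of further cell types were counted in the same limma fit. There were 3 higher and none lower of 7 tested genes of pericytes and smooth muscle, 1 lower of 4 of lens (Lim2, named after its value was seen), none either way of 9 of photoreceptors, 5 of Muller glia and astrocytes or 7 of endothelium, 3 higher and 2 lower of 6 of melanocytes and 3 lower of 3 erythroid genes, and lymphocyte markers were too low to test. At an unadjusted limma p under 0.05 there were 1 higher and 1 lower photoreceptor gene, 1 higher endothelial gene, 1 lower pericyte or smooth muscle gene and no glial gene, and edgeR and DESeq2 called none of these. Photoreceptor and endothelial markers were highest in Normal replicate 2 (sums of 1076 and 766).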
